A study of Mus musculus with 6 samples.

Results

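Interferon-stimulated genes are the genes that cells switch on when an interferon binds its receptor, and 43 of them were followed in bone marrow-derived macrophages (BMMs) exposed to cartilage fragments. They were picked by gene symbol from 24394 symbols in the deposited files, as 34 antiviral genes of the type I response and 9 GTPases of the Gbp and Irg families. The BMMs came from C57BL/6 mice of postnatal day 28, all wild type, and were grown from marrow for 7 days in medium with M-CSF (macrophage colony-stimulating factor) at 50 ng/ml. The 3 stimulated cultures then received cartilage fragments at 5 fragments per macrophage for 24 h, and the 3 control cultures received none. The fragments came from femoral head cartilage of the mice that also gave the marrow, so the added material was itself mouse tissue, and the marrow cells had passed a monocyte isolation kit before culture. The ratio is given as 5:1 and is read here as fragments to macrophages. Each culture gave 1 RNA-seq library. Neither the labels nor the methods say whether the cultures of a group came from separate mice, so the p-values measure the spread between these libraries, which may be technical.

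Type I interferons signal through the receptor chains Ifnar1 and Ifnar2 and the kinases Jak1 and Tyk2 to a complex with Stat2 and Irf9, which binds the interferon-stimulated response element (ISRE) in promoters. Interferon-gamma signals through Ifngr1 and Ifngr2 to promoters with a gamma-activated site (GAS). Macrophages are known to respond to both, and a low tonic signal keeps part of the genes expressed at rest. The antiviral genes encode sensors of foreign nucleic acid, enzymes and binding proteins that act on viral RNA, membrane proteins that block entry or release of virus, and the ubiquitin-like system of Isg15. The Gbp and Irg GTPases act mainly on the vacuoles of intracellular bacteria and parasites.

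The promoters show what the members share in sequence. RefSeq promoter windows (GRCm38.p6, 250 bases before to 50 bases after the annotated start) were held for 33 of the 43 members. An ISRE, searched as GAAANNGAAA on both strands, was found in 19 of these 33 members, 12 of 25 antiviral genes and 7 of 8 GTPases. Of all 27025 genes with a window 3.99% held it, and of all 32851 promoter windows 3.44%. A GAS, searched as TTCNNNGAA, was found in 9 of the 33 members, against 9.55% of all genes and 8.30% of all windows. Of the ISRE matches 2 overlapped a GAS match. The 30 ISRE matches lay between 165 bases before and 32 bases after the start, with a median first base at -49, and 10 members held more than 1 match. A match is a run of letters and was not tested for binding. Shown here are the whole window of Bst2, the member with the lowest adjusted p from FPKM, and the stretch around the ISRE of members of each kind described below, written 5′ to 3′ along the strand of the gene with the ISRE matches in capitals.
Bst2, chr8:71537423-71537722, minus strand: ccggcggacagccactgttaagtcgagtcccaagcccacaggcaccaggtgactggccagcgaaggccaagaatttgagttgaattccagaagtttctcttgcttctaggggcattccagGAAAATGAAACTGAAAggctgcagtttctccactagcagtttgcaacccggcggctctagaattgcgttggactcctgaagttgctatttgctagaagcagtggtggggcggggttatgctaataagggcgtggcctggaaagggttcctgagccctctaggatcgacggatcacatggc
Ifit3, chr19:34583343-34583446, plus strand: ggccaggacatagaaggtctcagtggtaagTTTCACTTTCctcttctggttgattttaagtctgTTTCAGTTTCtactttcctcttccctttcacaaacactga
Rsad2, chr12:26456533-26456602, minus strand: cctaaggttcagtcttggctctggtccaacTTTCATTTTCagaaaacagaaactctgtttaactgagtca
Oas1g, chr5:120887586-120887661, minus strand: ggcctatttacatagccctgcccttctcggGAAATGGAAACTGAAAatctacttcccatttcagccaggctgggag
Oas3, chr5:120777695-120777764, minus strand: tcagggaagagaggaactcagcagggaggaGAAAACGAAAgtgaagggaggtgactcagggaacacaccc
Isg15, chr4:156200845-156200926, minus strand: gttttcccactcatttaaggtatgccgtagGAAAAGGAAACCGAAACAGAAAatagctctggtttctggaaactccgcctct
Gbp7, chr3:142530253-142530322, plus strand: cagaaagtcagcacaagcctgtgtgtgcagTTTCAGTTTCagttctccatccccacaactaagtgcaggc
Irgm1, chr11:48871405-48871480, minus strand: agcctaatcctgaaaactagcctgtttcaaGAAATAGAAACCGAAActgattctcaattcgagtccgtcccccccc
Among members whose groups separated upward the element was present in Bst2, Ifit3, Rsad2, Oas1g and Gbp7, and in Ifitm3, whose window is not shown. It was also present in a member that lay lower with fragments (Oas3) and in a member that hardly differed (Irgm1). It was not found in the windows of Oasl1 and Oasl2, which also separated upward, or of Trim25, which separated downward. No window was held for Rtp4 and Mx1, which separated upward as well. In 33 of 37 member windows checked, bases after the annotated start matched a transcript of the gene. In Isg15 3 matches followed each other at a spacing of 6 bases.

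**Figure D1:**
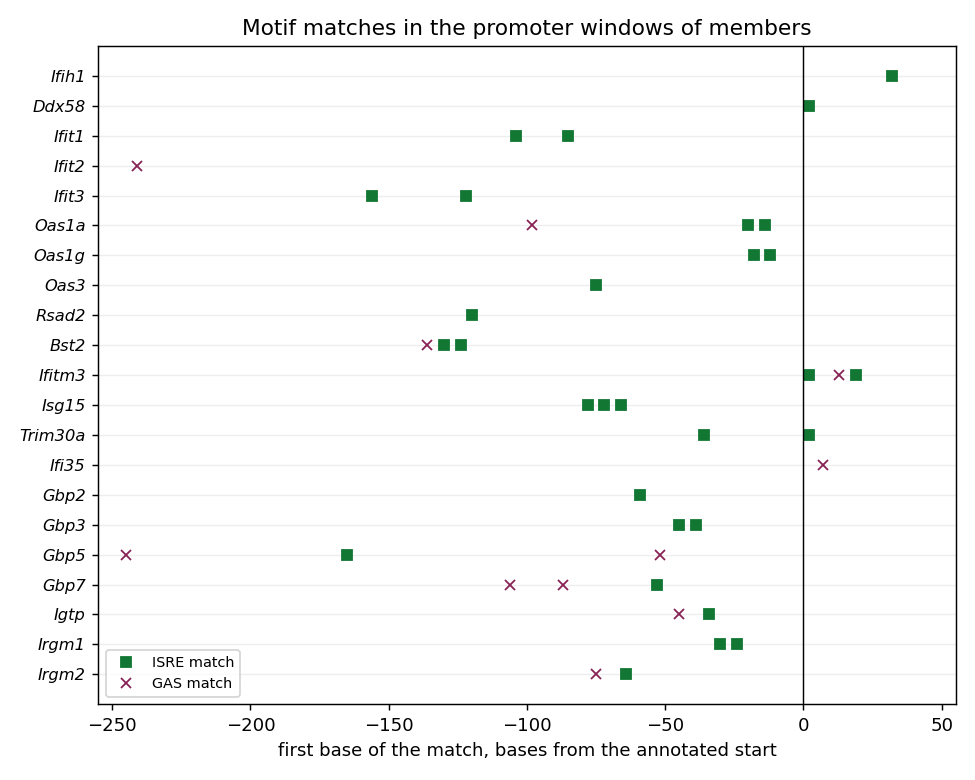
Position of each ISRE match (squares) and GAS match (crosses) in the promoter windows of the members that held one, with the first base of the match in bases from the annotated start on the horizontal axis. Most ISRE squares lie before the start, and 25 of the 30 lie within the 200 bases before it.

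Levels were given in FPKM, a fragment number divided by transcript length and library depth, and were summed per gene symbol. The libraries held an estimated 699131 to 776270 fragments, so that 1 fragment weighs heavily in a low gene. This estimate from the deposited coverage is far below the number of mapped reads that the methods state, the reason is not known, and every limit of depth given here rests on the estimate. A gene entered the test, made with limma on log2(FPKM + 0.1), if its FPKM averaged 1 or more. The p-values of all 10393 such genes were adjusted together (Benjamini-Hochberg). As an alternative, fragments per gene were estimated from the deposited coverage and scaled to library depth (scaled fragments). Of the 43 members 34 were above 0 in every library. The mean was over 100 FPKM for 2 members, between 10 and 100 for 13, between 1 and 10 for 24 and under 1 for 4.

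No member passed an adjusted p of 0.05 from limma, whether from FPKM or from scaled fragments, although the means leaned upward. Of all tested genes 0.366% passed in either direction from FPKM (0.308% higher and 0.0577% lower) and 2.42% from scaled fragments (1.58% higher and 0.847% lower). The test was run on 39 members, and the filter removed the antiviral genes Mx2 and Ifi44 and the GTPases Gbp5 and Iigp1. Oasl1, Mx1, Gbp7 and Cmpk2 averaged under 1 FPKM in controls (0.698, 0.700, 0.736 and 0.754). They passed the filter only through their stimulated values, which favours higher means among the low members that were tested. At an unadjusted p under 0.05 limma gave 6 members higher and 0 lower from FPKM, against 5.39% and 3.80% of all tested genes. From scaled fragments it gave 6 higher and 2 lower, against 6.42% and 5.17%. The mean log2 value was higher with cartilage fragments in 35 of the 39 members both from FPKM and from scaled fragments, against 50.5% and 49.9% of all tested genes. With no filter on low values it was higher in 37 of 42. The median log2 difference was 0.34 over the members, 0.33 over the antiviral genes and 0.55 over the GTPases, against 0.00 over all tested genes. From scaled fragments the medians were 0.33, 0.31 and 0.52.

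For 10 members the lowest stimulated library exceeded the highest control, against 9.04% of all tested genes. For 2 members the reverse held, against 6.89%. Of the 10, Oasl1, Mx1 and Gbp7 had passed the filter only through their stimulated values. In scaled fragments 9 members were apart upward and 2 downward, against 9.03% and 7.5%. Stimulated replicate 1 held the highest of the 6 values in 14 of the 39 members, stimulated replicate 2 in 10 and stimulated replicate 3 in 8, while the control libraries held it in 2 or 3 each. Over all tested genes each library held the highest value in 15.4% to 18.3%. Summed over the 34 antiviral genes, the controls gave 764.7, 885.7 and 789.5 FPKM and the stimulated libraries 991.7, 972.2 and 895.3 FPKM. Ifitm3 alone made up 46.6% to 48.2% of each sum. Without it the sums were 398.3, 461.6 and 416.2 FPKM in controls and 513.6, 519.2 and 468.8 FPKM with fragments, so the order of the groups was kept. The 9 GTPases summed to 62.3, 56.6 and 68.0 FPKM in controls and to 77.8, 79.2 and 67.4 FPKM with fragments, and here stimulated replicate 3 lay below control replicate 3.

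**Figure D2:**
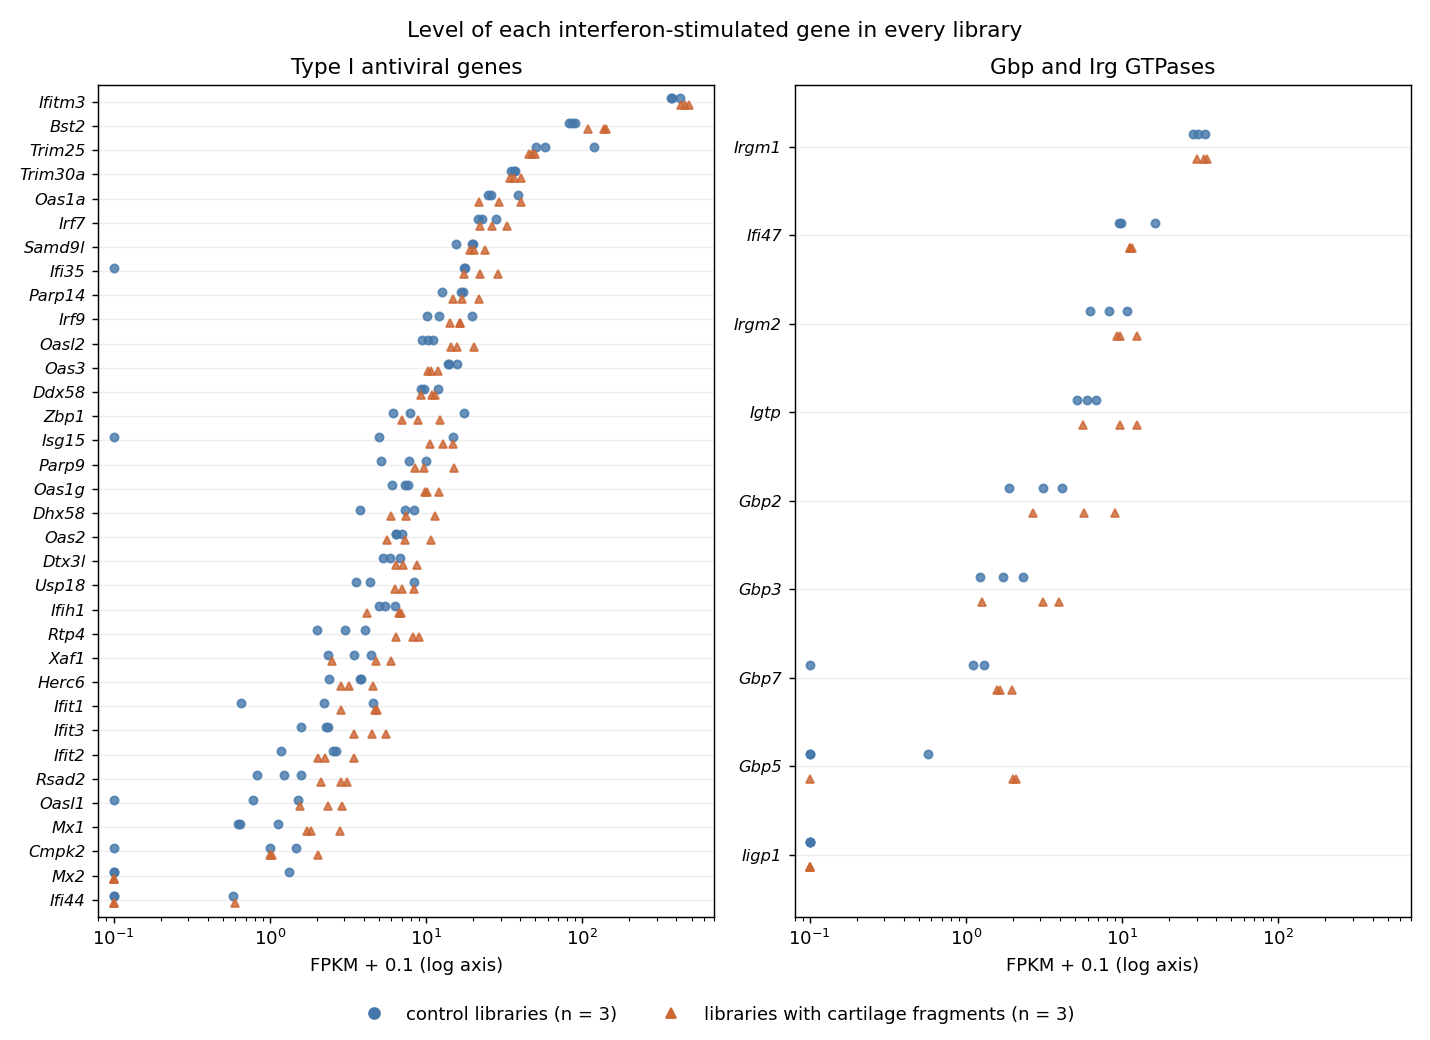
FPKM + 0.1 on a log axis for each of the 43 members in the 3 control libraries (circles) and the 3 libraries with cartilage fragments (triangles), ordered by mean level within each class. Ifitm3 and Bst2 lie at the top above 100 FPKM on average, and the triangles of Bst2, Rtp4, Ifit3 and Rsad2 lie to the right of all their circles. Points at the left edge are values listed at 0.

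The libraries were macrophage libraries by their markers, with 7 of 7 macrophage markers present in every library, in summed FPKM of 29402 to 39129 in controls and 29935 to 40198 with fragments. Lyz2 made up most of that sum and overlapped between the groups, while Adgre1 (349.8 to 373.2 FPKM in controls, 524.2 to 566.2 FPKM with fragments) and Itgam (346.03 to 362.0 and 403.5 to 436.8 FPKM) were higher without overlap. Of 10 chondrocyte markers 6 were at 0 in every library (Matn1, Matn3, Col9a1, Hapln1, Chad and Prg4), and the list summed to 1.15 to 3.28 FPKM in controls and 0.985 to 1.59 FPKM with fragments. Plasmacytoid dendritic cells are a main source of type I interferon, and their 5 markers summed to at most 0.620 FPKM in controls and 3.75 FPKM with fragments, with Ccr9 and Klk1 at 0. The 3.75 FPKM came from stimulated replicate 2, where Cox6a2 was at 3.11 FPKM. Cox6a2 was at 0 in every other library, and Siglech was at most 0.620 FPKM in controls and 0.639 FPKM with fragments. All 5 markers of T and NK cells and all 5 of erythroid cells were at 0. The 6 neutrophil markers held in the files summed to 108.8 to 137.1 FPKM in controls and 92.5 to 170.3 FPKM with fragments. The 5 stromal markers, none of them at 0 in every library, summed to 154.4 to 169.03 FPKM in controls and to a lower 103.3 to 118.3 FPKM with fragments. That sum was carried by Col1a1 and Col1a2, while Dcn was at 3.27, 1.69 and 3.42 FPKM in controls and 4.23, 1.76 and 4.55 FPKM with fragments. The part of these macrophage and stromal markers in the members' differences was not tested. In these bulk samples fewer cells of a type and less RNA per cell cannot be told apart.

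Irf7 and Irf9 are transcription factors of the response: Irf9 binds DNA in a complex with Stat2, and Irf7 amplifies interferon production. Irf7 was at 22.5, 21.5 and 27.9 FPKM in controls and 21.99, 33.04 and 26.4 FPKM with fragments. Irf9 was at 19.5, 10.0 and 12.1 FPKM in controls and 16.3, 16.4 and 14.2 FPKM with fragments. For both factors the groups overlapped, and only stimulated replicate 2 of Irf7 lay outside the range of the controls. The log2 difference was 0.17 (95% interval -0.29 to 0.63, adjusted p = 0.829 from limma) for Irf7 and 0.23 (-0.37 to 0.83, adjusted p = 0.822 from limma) for Irf9. A doubling lay outside both intervals.

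The nucleic acid sensors Ifih1 and Ddx58, which detect viral RNA in the cytoplasm, their relative Dhx58 and the sensor Zbp1 were all expressed and showed the smallest median difference among the groups of members, 0.04 on the log2 scale. Ddx58 averaged 10.2 ± 1.41 FPKM in controls and 10.4 ± 1.08 FPKM with fragments (SD, n = 3). Ifih1 averaged 5.48 ± 0.677 and 5.80 ± 1.50 FPKM. The intervals of these 2 members excluded a doubling, with -0.44 to 0.50 for Ddx58 and -0.61 to 0.71 for Ifih1 on the log2 scale. Dhx58 (0.37) and Zbp1 (-0.05) were less precise, with 71 and 39 fragments over the 6 libraries.

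Of the Ifit proteins, which bind viral RNA and restrain its translation, Ifit3 separated the groups. It was at 2.17, 1.49 and 2.27 FPKM in controls and 3.37, 5.47 and 4.44 FPKM with fragments. All stimulated values exceeded all control values, from 8 fragments in the controls together and 17 in the stimulated libraries together. The log2 difference was 1.12 (standard error 0.370, adjusted p = 0.396 from limma), and over the alternatives the adjusted p ran from 0.379 to 0.685. The related gene Ifit3b had 0 fragments in each control and 1.5, 3 and 1.5 with cartilage fragments. Ifit3 and Ifit3b may share reads, so the value of Ifit3 is uncertain. Ifit1 was at 2.14, 0.550 and 4.47 FPKM in controls and 2.76, 4.60 and 4.75 FPKM with fragments, so that control replicate 3 lay above stimulated replicate 1 (log2 difference 1.10, adjusted p = 0.686 from limma). Ifit2 averaged 2.01 ± 0.819 FPKM in controls and 2.48 ± 0.772 FPKM with fragments (SD, n = 3).

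The 6 members of the Oas family differed among themselves. Oas enzymes make oligoadenylates that activate RNase L, and the Oas-like proteins Oasl1 and Oasl2 are their relatives. Oasl2 was at 10.2, 10.9 and 9.27 FPKM in controls and 15.6, 20.1 and 14.3 FPKM with fragments. Oas1g was at 7.21, 5.94 and 7.53 FPKM in controls and 9.69, 10.1 and 12.03 FPKM with fragments. In both genes the groups were apart, with log2 differences of 0.70 (standard error 0.201, adjusted p = 0.290 from limma) and 0.62 (standard error 0.213, adjusted p = 0.418 from limma). Oasl2 had the lowest adjusted p of any member from scaled fragments, 0.115, from 68 fragments in the controls and 106 with fragments.

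Oasl1 was at 0.677 FPKM in control replicate 1, listed at 0 in control replicate 2 and at 1.42 FPKM in control replicate 3, against 2.80, 1.46 and 2.26 FPKM with fragments. The groups were apart, but on 3 fragments in the controls and 9 with fragments, a ratio of 3.14 with a 95% counting interval of 0.783 to 18.02. Oas3 was the member of this family that lay lower with fragments. It was at 15.6, 13.6 and 13.9 FPKM in controls and 11.9, 10.2 and 10.6 FPKM with fragments, a log2 difference of -0.39 (95% interval -0.80 to 0.02, adjusted p = 0.566 from limma) from 147 and 107 fragments. Oas1a and Oas2 overlapped between the groups, with log2 differences of 0.02 and 0.20. Oas1a, Oas1g, Oas2 and Oas3 are paralogs in 1 cluster on chromosome 5, and Oas1a and Oas1g in particular may share reads, so their values are uncertain.

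Bst2, a surface protein that tethers budding virus to the cell, had the lowest adjusted p of the members from FPKM. It was at 85.7, 81.7 and 89.5 FPKM in controls and 137.5, 140.7 and 108.6 FPKM with fragments. The lowest stimulated library, replicate 3, lay above the highest control. The log2 difference was 0.58 (standard error 0.122, 95% interval 0.30 to 0.86), with an adjusted p of 0.123 from limma and of 0.119 from scaled fragments. Leaving out single libraries kept its log2 difference between 0.51 and 0.70 and gave adjusted p of 0.0692 to 0.371 from limma, the lowest without stimulated replicate 3. Bst2 is the only member in the study's own list of changed genes, which was drawn from these same libraries, so its listing is not independent evidence.

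Ifitm3, which blocks fusion of viral and endosomal membranes, was the highest member by far. It was at 366.4, 424.1 and 373.3 FPKM in controls and 478.03, 453.02 and 426.4 FPKM with fragments. Control replicate 2 lay just under stimulated replicate 3, and in scaled fragments the groups overlapped. The log2 difference was small and well bounded, 0.22 with a 95% interval of 0.04 to 0.40 (adjusted p = 0.423 from limma). Samd9l, an inhibitor of translation, averaged 18.3 ± 2.50 FPKM in controls and 20.9 ± 2.35 FPKM with fragments (SD, n = 3).

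Mx1, Rsad2 and Cmpk2 were near the lower limit of these libraries. Mx1, a dynamin-like GTPase against influenza virus, is carried by C57BL/6 mice as a defective allele, and it was at 0.522, 1.03 and 0.545 FPKM in controls and 2.69, 1.63 and 1.74 FPKM with fragments. Rsad2, which encodes the antiviral enzyme viperin, was at 0.726, 1.49 and 1.14 FPKM in controls and 2.997, 2.74 and 2.02 FPKM with fragments. In both genes all stimulated libraries lay above all controls. The fragments behind them were 4 and 11 for Mx1 and 9 and 20 for Rsad2, and the log2 differences were 1.43 (standard error 0.712, adjusted p = 0.596 from limma) and 1.17 (standard error 0.541, adjusted p = 0.573 from limma). Cmpk2, a nucleotide kinase encoded beside Rsad2, had 13 fragments in all, and Mx2 had 2, both in control replicate 3.

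Isg15, the ubiquitin-like protein that gives the system its name, could not be placed. It was listed at 0 in control replicate 1 and was at 4.89 and 14.8 FPKM in the other controls, against 14.7, 12.8 and 10.5 FPKM with fragments. Control replicate 3 was the highest library of all 6. The log2 difference of 2.70 (1.47 from scaled fragments) had a 95% interval of -2.29 to 7.69 and ran from 0.56 to 4.16 over the alternatives. Usp18, the protease that removes Isg15 and damps the type I receptor, was at 8.30, 4.27 and 3.47 FPKM in controls and 6.87, 6.27 and 8.31 FPKM with fragments. Control replicate 1 lay within the stimulated values (log2 difference 0.50, adjusted p = 0.716 from limma). Herc6, the ligase of Isg15 in mice, had 3.25 ± 0.815 and 3.46 ± 0.913 FPKM (SD, n = 3).

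Trim25, a ubiquitin ligase that activates the sensor Ddx58, was at 50.7, 117.9 and 57.2 FPKM in controls and 49.5, 47.2 and 45.6 FPKM with fragments. The groups were apart downward, and control replicate 2 stood far above the rest. That library alone carried all of its Trim25 signal on assembled transcripts without a name, and its reference transcript was listed at 0. In fragments the library was not apart, with 229.2 against 210.9 and 227.9 in the other controls and 199.5, 182.7 and 170.4 with cartilage fragments. The log2 difference was -0.56 from FPKM (adjusted p = 0.613 from limma) and -0.21 from scaled fragments (adjusted p = 0.351 from limma), and it was 2.93 on reference transcripts alone. Without control replicate 2 it was -0.18. Trim30a, a Trim protein that restrains inflammatory signalling, hardly differed, with 37.2, 36.3 and 34.9 FPKM in controls and 40.4, 36.3 and 34.2 FPKM with fragments (95% interval -0.28 to 0.34 on the log2 scale).

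Unnamed assembled transcripts altered the values of 9 members in at least 1 library: Dhx58, Oas1a, Oas2, Oas3, Trim25, Trim30a, Parp9, Parp14 and Irgm1. For Irgm1 the reference transcript alone gave 4.96, 28.4 and 8.33 FPKM in controls and 12.1, 7.39 and 30.04 FPKM with fragments. With the assembled transcripts of the same locus the values came to 30.4, 28.4 and 33.9 FPKM and to 35.04, 33.3 and 30.04 FPKM, a far smaller spread. In Oas2 stimulated replicate 3 was listed at 0 on the reference transcript and at 10.6 FPKM with the assembled ones.

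**Figure D3:**
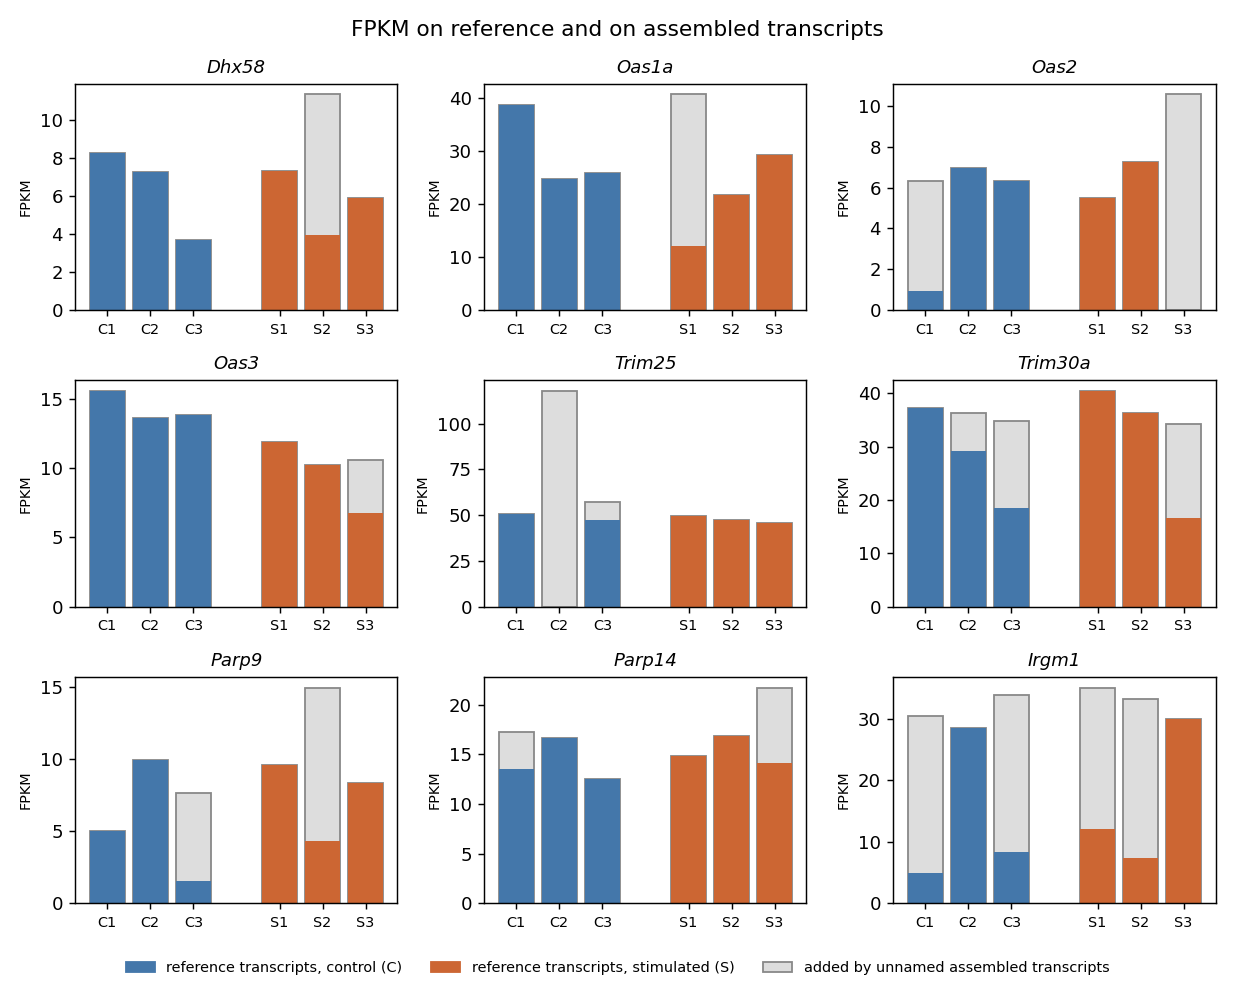
FPKM of the 9 members with unnamed assembled transcripts in the control (C1 to C3) and stimulated (S1 to S3) libraries, with reference transcripts in colour and the part added by assembled transcripts in grey. In Trim25 the whole bar of C2 is grey, and in Irgm1 4 of the 6 libraries are mostly grey while the full bars are of nearly equal height.

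Parp9 and Dtx3l form a complex that modifies histones and viral proteins, and their loci overlap on chromosome 16, where reads of one may be given to the other. Dtx3l averaged 5.89 ± 0.754 FPKM without and 7.33 ± 1.17 FPKM with fragments, and Parp9 averaged 7.54 ± 2.46 and 10.97 ± 3.50 FPKM (SD, n = 3). Parp14, a further ADP-ribosyltransferase, had 15.5 ± 2.56 and 17.8 ± 3.53 FPKM. All 3 had overlapping groups and adjusted p of 0.663 to 0.818 from limma.

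Rtp4, a Golgi protein induced by interferon, had the second lowest adjusted p from FPKM. It was at 1.90, 2.94 and 3.97 FPKM in controls and 8.85, 8.20 and 6.35 FPKM with fragments. The groups were well apart for so low a gene, with 2, 3 and 4 fragments in the controls and 9, 8.1 and 6 with cartilage fragments. The log2 difference was 1.42 (standard error 0.337, 95% interval 0.65 to 2.20, adjusted p = 0.182 from limma), and the adjusted p ran from 0.160 to 0.448 over the alternatives. Ifi35 was listed at 0 in control replicate 1 but was at 17.4 and 17.6 FPKM in the other controls and 17.5, 21.9 and 28.8 FPKM with fragments. Its log2 difference of 2.83, the highest of the members, rested on that 0, and without control replicate 1 it was 0.34. Xaf1 overlapped between the groups, and Ifi44 had 2 fragments in all.

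Among the GTPases Gbp7 was the one whose groups did not overlap. It was at 1.20 FPKM, listed at 0 and at 1.01 FPKM in controls, and at 1.49, 1.55 and 1.87 FPKM with fragments, from 9 and 19 fragments (ratio 2.21, 95% counting interval 0.952 to 5.54). Gbp2 was at 4.04, 1.78 and 3.02 FPKM in controls and 8.95, 5.60 and 2.57 FPKM with fragments, and stimulated replicate 3 lay within the controls. Gbp3 had 1.66 ± 0.550 and 2.68 ± 1.38 FPKM (SD, n = 3). Gbp5, which the filter removed, was listed at 0 in 2 controls and 1 stimulated library. It had 1 fragment in the controls and 8 with cartilage fragments, 4, 4 and 0 by replicate (ratio 8.37, 95% counting interval 1.12 to 371.3). The Gbp genes are close paralogs on chromosome 3, and the split of reads between them is uncertain.

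Of the Irg GTPases Irgm1, which regulates the others of its family, was the highest and its difference was the most closely bounded, 0.09 on the log2 scale with a 95% interval of -0.25 to 0.42. Igtp was at 5.01, 5.89 and 6.72 FPKM in controls and 5.54, 12.3 and 9.55 FPKM with fragments, so that only stimulated replicate 1 lay among the controls. Its log2 difference was 0.57 (standard error 0.323, adjusted p = 0.650 from limma). Ifi47 was at 9.39, 9.68 and 16.1 FPKM in controls and 11.5, 11.1 and 11.2 FPKM with fragments, with the stimulated values inside the range of the controls (log2 difference -0.01). Its locus was joined to that of the olfactory receptor gene Olfr56 in all 6 libraries. No unnamed assembled transcripts were added to the values of Ifi47, which may be incomplete. Mx1 likewise lay in an assembled locus in all 6 libraries, with none added to its values. Irgm2 had 8.28 ± 2.23 and 10.3 ± 1.69 FPKM (SD, n = 3), and Iigp1 was listed at 0 in all 6 libraries.

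**Figure D4:**
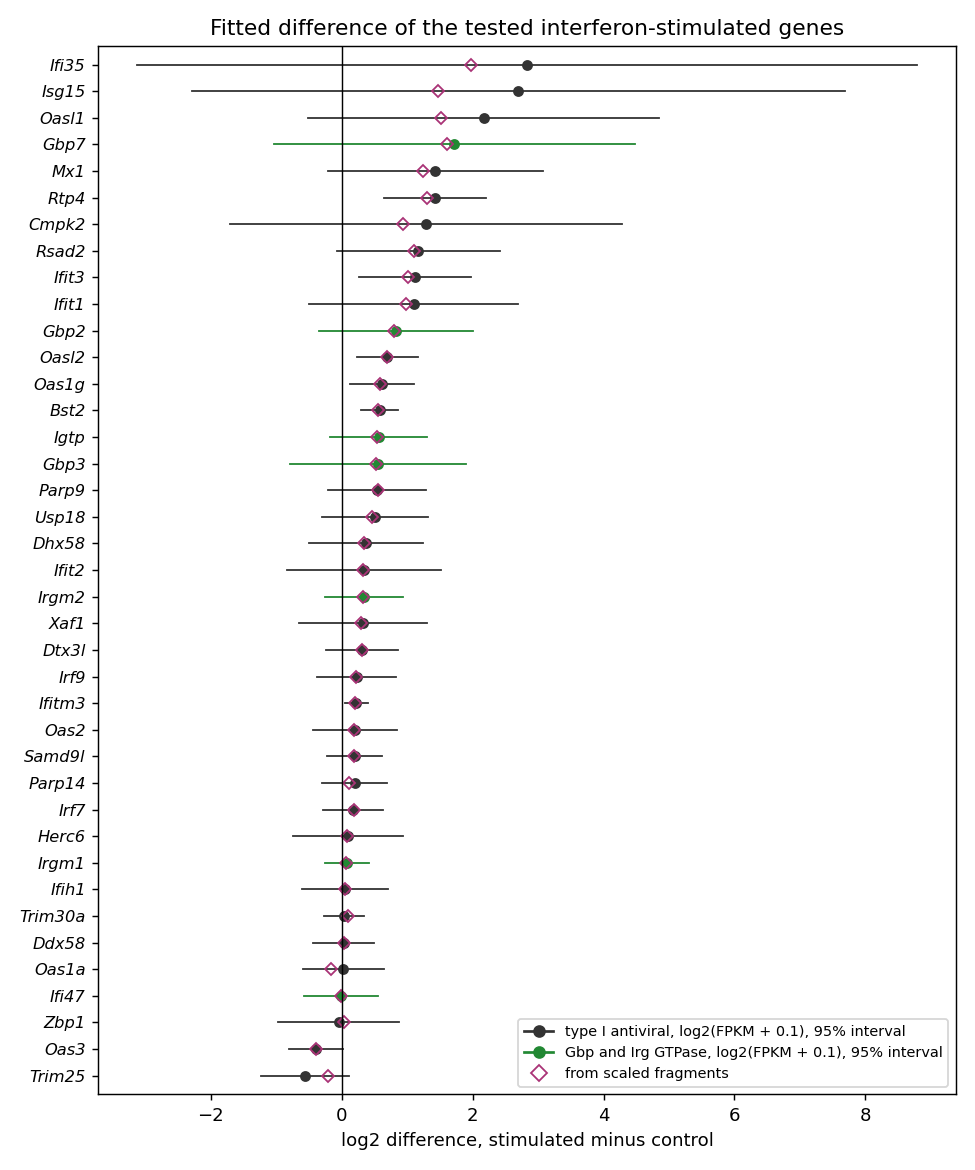
Log2 difference (stimulated minus control) of each of the 39 tested members from log2(FPKM + 0.1), with its 95% interval from limma, and from scaled fragments (open diamonds). The interval lies above 0 for 6 members (Bst2, Rtp4, Oasl2, Ifit3, Oas1g and Ifitm3), below 0 for none, and holds 0 for 33.

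The size of the differences varied with depth. The 18 members with at least 100 fragments over the 6 libraries had a median log2 difference of 0.20, and the 21 with fewer had 0.83. Among all tested genes the medians of these depth classes were 0.00 and 0.01. Oasl1, Mx1, Gbp7 and Cmpk2, which are among the 21, had passed the filter only through their stimulated values. For 15 of the 18 deeper members, but only 3 of the 21 others, the 95% interval lay within a doubling or halving. For the rest a 2-fold difference in at least 1 direction was not excluded at this depth.

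**Figure D5:**
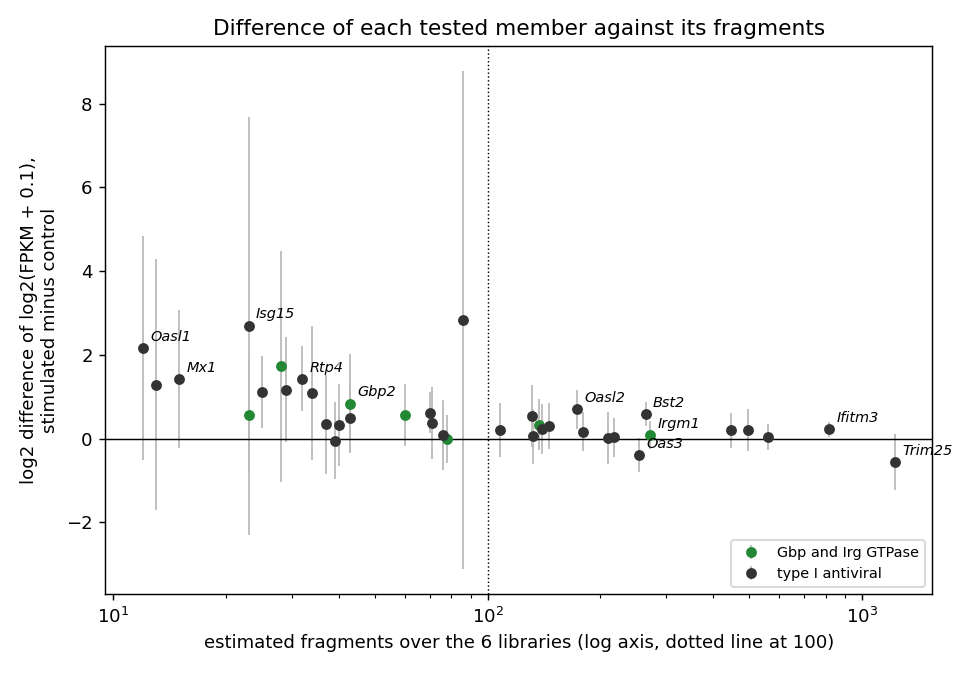
Log2 difference of each tested member, with its 95% interval, against its estimated fragments over the 6 libraries on a log axis. To the right of the dotted line at 100 fragments the points lie between -0.56 and 0.70, and to the left they reach 2.83 with wide intervals.

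Upstream of the members, the 11 interferon genes looked up (Ifnb1, Ifng, Ifnl2, Ifnl3 and the rest Ifna genes) were all listed at 0 in all 6 libraries. The cultures were sampled once, at 24 h, and earlier times were not measured. The receptor chains were present. Ifnar1 was at 16.8, 14.3 and 18.6 FPKM in controls and 23.9, 40.7 and 21.9 FPKM with fragments, with no overlap between the groups. Its log2 difference was 0.75 (adjusted p = 0.417 from limma) and from scaled fragments 0.45 (adjusted p = 0.0553 from limma). On reference transcripts alone control replicate 1 of Ifnar1 was at 6.88 FPKM. Stimulated replicate 2 was at 18.1 FPKM there, below control replicate 3, so the groups overlapped. In fragments they were apart, with 87, 73.7 and 94.2 in controls and 122.3, 105.2 and 104.2 with cartilage fragments. Ifnar1 is also in the study's list of changed genes, which was drawn from these same libraries. Ifnar2, Ifngr1 and Ifngr2 overlapped between the groups, at 0.05, 0.13 and 0.02 on the log2 scale. From scaled fragments they were at 0.33, 0.12 and -0.11 (adjusted p = 0.419, 0.639 and 0.834 from limma), also with overlap. The factors Stat2 (0.16) and Irf1 (0.04) also overlapped.

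Of a list of 101 further genes of the interferon pathways 100 were in the files and 74 were tested. From FPKM 1 passed the threshold upward and 0 downward, and from scaled fragments 4 upward and 1 downward, against the 0.366% and 2.42% of all tested genes. Over this list 49 of 74 had a higher mean and the median log2 difference was 0.14. The gene that passed from FPKM was the chemokine gene Ccl5, which rose from 7.96, 8.33 and 12.5 FPKM in controls to 46.03, 47.9 and 26.8 FPKM with fragments. Its log2 difference was 2.04 (standard error 0.281, adjusted p = 0.0305 from limma), on 7 and 28 fragments. It missed the threshold from scaled fragments (adjusted p = 0.0528 from limma) and without control replicate 1 (0.111), control replicate 2 (0.114), stimulated replicate 1 (0.199) or stimulated replicate 2 (0.139). Of the other inducible chemokines Cxcl9 was listed at 0 throughout, and Cxcl10, with 8 fragments, was at 1.45, 1.50 and 0 FPKM in controls and 4.52, 4.71 and 0 FPKM with fragments.

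From scaled fragments the kinase gene Ikbke (log2 difference 0.71, adjusted p = 0.00107 from limma), Lgals3bp (0.39, adjusted p = 0.0025 from limma), the RNA-degrading factor N4bp1 (0.61, adjusted p = 0.0034 from limma) and Slfn2 (0.41, adjusted p = 0.0107 from limma) were higher. All 4 are in the study's list of changed genes, and Ccl5 is not. That list was drawn from these same libraries, so a listing is not independent evidence. The call of Slfn2 was lost in 3 of the 6 fits that left out a library, those without control replicate 2, stimulated replicate 1 and stimulated replicate 2 (adjusted p = 0.165, 0.113 and 0.150 from limma). The gene that was lower was Tlr7, an endosomal sensor of single-stranded RNA, with 71.5, 63.7 and 59.3 FPKM in controls and 45.8, 44.05 and 36.1 FPKM with fragments. Its log2 difference from scaled fragments was -0.63 (standard error 0.110, adjusted p = 0.000368 from limma), and from FPKM the adjusted p was 0.154 from limma. Tlr7 is not in the study's list. On reference transcripts alone none of these 5 genes passed from scaled fragments, with log2 differences of 1.01 for Ikbke, 0.39 for Lgals3bp, 0.48 for N4bp1, 0.41 for Slfn2 and -0.65 for Tlr7. In that setting 14 of all 10352 tested genes passed. Assembled transcripts changed no value of Lgals3bp or Slfn2, and their log2 differences were the same in both settings. The lost calls of these genes therefore do not reflect a change in their own values.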

How the data were processed

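All 6 libraries were used. The authors used TopHat with Bowtie to align paired-end reads of 100 bases to mm10, and Cufflinks for each library. Versions are not given in the sources used here. The deposited FPKM and the deposited coverage, a signal of mean read depth, are listed per transcript, reference or assembled. FPKM were summed per symbol, including unnamed assembled transcripts of a Cufflinks gene with a single symbol, which lowered the share of FPKM without a symbol from 15.8%–19.96% to 7.03%–10.38%. Summing the named transcripts alone was an alternative. Fragments per gene were estimated from coverage and length. Of the values up to 8 in genes with a single transcript, 93.2% to 94.01% lay within 0.1 of a whole number. The length offset of each library was chosen to make this share as large as possible, so the share is no independent check of the estimate. Intervals on fragments (exact binomial) cover counting error only.

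The comparison was made in R 4.3.3 with limma 3.58.1 (eBayes with trend and robust, two-sided) on log2(FPKM + 0.1), and on scaled fragments with 0.5 added. The script was also run on simulated fragments. These held no assembled transcripts and no reads shared between genes, so that run does not cover those limits. The log2(FPKM + 0.1) difference of a low gene depends on the value added, most of all where a library is listed at 0. Python 3.11.15 was used for tables and figures. The study's own comparison used Cuffdiff on alignments, which were not analysed here. Every library's value is given for members whose groups did not overlap, for the 5 of highest mean FPKM and for defining members, and the others are given by mean or range. Some pathway and marker genes are not reported here. Members, gene lists and this rule were chosen with earlier results of these data known. Alternatives changed the pseudocount, filter, scaling, moderation, transcript status, unit and block, or left out each library. Those on scaled fragments with a further change were added after the data were seen. Ranges over the alternatives leave out these and the block.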

Additional observations from a re-analysis of the deposited data

How the results depend on the processing

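No interferon-stimulated gene passed an adjusted p of 0.05 from limma in any of the 26 alternatives, 8 of them added after the data were seen, and the lowest adjusted p was 0.0692. Of the 39 tested members 28 kept the sign of their difference in each alternative they were run in, the 8 added ones aside, and 27 of the 39 were run at a mean FPKM of at least 5. Reversals were close to 0 where scaling was changed: with equal totals the log2 difference was -0.0068 for Ddx58, -0.015 for Oas1a, -0.0052 for Trim30a and -0.019 for Ifngr2, and with quantile normalization -0.0016 for Oas1a and -0.018 for Ifngr2. From scaled fragments it was 0.036 for Zbp1, -0.16 for Oas1a and -0.11 for Ifngr2. On reference transcripts only it was -0.13 for Dhx58, -0.56 for Oas1a, -1.17 for Oas2, 2.93 for Trim25 and -0.12 for Ifngr2, since this setting leaves out assembled transcripts. Leaving out each library in turn, the log2 difference ran from -0.075 to 0.28 for Ifih1, -0.041 to 0.14 for Ddx58, -0.35 to 0.39 for Zbp1, -0.043 to 0.54 for Ifit2, -0.21 to 0.24 for Oas1a, -0.044 to 0.42 for Oas2, -0.13 to 0.24 for Herc6, -0.035 to 0.085 for Trim30a, -0.15 to 0.23 for Ifi47, -0.029 to 0.20 for Ifnar2, -0.10 to 0.10 for Ifngr2, -0.029 to 0.14 for Irf1 and -0.27 to 2.91 for Cxcl10.

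Of all tested genes 38 passed from FPKM, against 252 from scaled fragments, 19 on reference transcripts only and 18 without trend and robust moderation, and with 1 library left out 8 to 30. From scaled fragments on reference transcripts only 14 passed, and with 1 library left out 153 to 223 (181, 170 and 208 without control replicate 1, 2 and 3, and 167 without stimulated replicate 2). Of the other pathway genes 1 passed from FPKM, against 5 from scaled fragments and 0 on reference transcripts only, without trend and robust moderation, or from scaled fragments on reference transcripts only. With 1 library left out 0 to 1 of them passed from FPKM and 4 to 6 from scaled fragments. The cause of these shifts was not tested.

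The replicate numbers were shared by both groups, and whether they pair the libraries is not known. Deviations of same-numbered libraries from their group means correlated at -0.0179, -0.0024 and 0.0099, and those of other pairs at -0.0472 to 0.0495. With 3 libraries per group at this estimated depth, such correlations cannot show whether the libraries were paired. With the replicate number as a block 18 of all tested genes and 0 of the other pathway genes passed from FPKM, and 246 and 5 from scaled fragments, and no interferon-stimulated gene passed. A difference of 2-fold could be bounded for 18 of the 39 tested members.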
